A study of Mus musculus with 24 samples.

Results

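The collagen genes of mouse were followed in the spinal cord after spared nerve injury, an operation on the sciatic nerve used as a model of neuropathic pain. Members were all genes whose symbol in the deposited gene table has the form Col, a number, the letter a and a number, which gave 44 of the 32884 genes in the table. Spinal cord was taken 3, 7 and 14 days after the common peroneal and tibial nerves were tied and cut, and from a sham group, labelled day 3, in which the sciatic nerve and its branches were only exposed. Each of the 4 groups had 3 input RNA libraries and 3 libraries of fragments pulled down with an antibody against N6-methyladenosine (m6A), a modified base of RNA, so that the series holds 24 samples. The sources used here give no strain, sex or age of the mice. They do not say whether replicate libraries stem from separate animals either, and p-values therefore reflect the variation among libraries alone, which could be technical. The series holds no sham cords labelled day 7 or 14, and all injured days were compared with the same sham libraries.

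Collagens are extracellular proteins in which chains with a repeated glycine motif wind into a triple helix. Fibrillar collagens build the tensile fibres of connective tissue, fibril-associated collagens decorate those fibres, and type IV collagen forms the sheet-like network of basement membranes. In the spinal cord this network surrounds blood vessels and lines the pial surface, while fibrillar collagens lie mainly in the meninges and around larger vessels. A triple helix often needs chains from several genes, so the relative levels of partner chains are of interest.

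RNA level was given as FPKM, a read density per length of transcript and library size, which allows levels of different genes to be set side by side. Depth per library is unknown. Markers of spinal cord cells were present in every library, with the 8 oligodendrocyte markers summing to 3729 to 4825 FPKM, the 8 astrocyte markers to 639 to 924 FPKM and the 10 neuron markers to 547 to 661 FPKM. Lumbar Hox genes (6 genes) summed to 70.3 to 87.3 FPKM. In tissue RNA, fewer cells of a type and less RNA per cell cannot be told apart.

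In 2 of the 12 input libraries, sham library 3 and day 7 library 3, many genes lay far from the other 10, and collagen genes were among the genes that differed. The 44 collagen genes together summed to 94.2 and 89.3 FPKM in sham libraries 1 and 2 but to 48.0 FPKM in sham library 3. On day 7 the sum was 85.7 and 86.6 FPKM in libraries 1 and 2 and 56.1 FPKM in library 3. Days 3 and 14 gave 79.7 to 80.5 FPKM and 84.6 to 86.1 FPKM. Sums over all genes were 180340 and 181738 FPKM in the 2 libraries and 197878 to 201358 FPKM in the others.

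Sham library 3 lay below both other sham libraries for 25 of the 27 collagen genes tested, as did 48.8% of all 15564 genes tested. The median of its collagen genes was -0.68 on the log2(FPKM + 0.5) scale relative to libraries 1 and 2, against -0.05 for all genes. Day 7 library 3 lay below both of its group for 24 of 27 collagen genes, as did 47.0% of all genes, with a median of -0.44 against -0.02. The 2 collagen genes that were higher in both libraries were Col25a1, a transmembrane collagen of neurons, at 0.47 and 0.48, and Col19a1, a fibril-associated collagen, at 0.55 and 0.23. The largest deficit was that of Col11a2 in sham library 3, at -1.37 (-0.96 in day 7 library 3), and that of Col6a1 in day 7 library 3, at -1.12 (-0.91 in sham library 3). Other genes moved the same way: the 12 basement membrane partners of collagen, laminins, nidogens, perlecan and agrin among them, summed to 23.3 FPKM in sham library 3 and 25.9 FPKM in day 7 library 3, against 45.9 to 53.4 FPKM in the other 10 libraries.

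**Figure D1:**
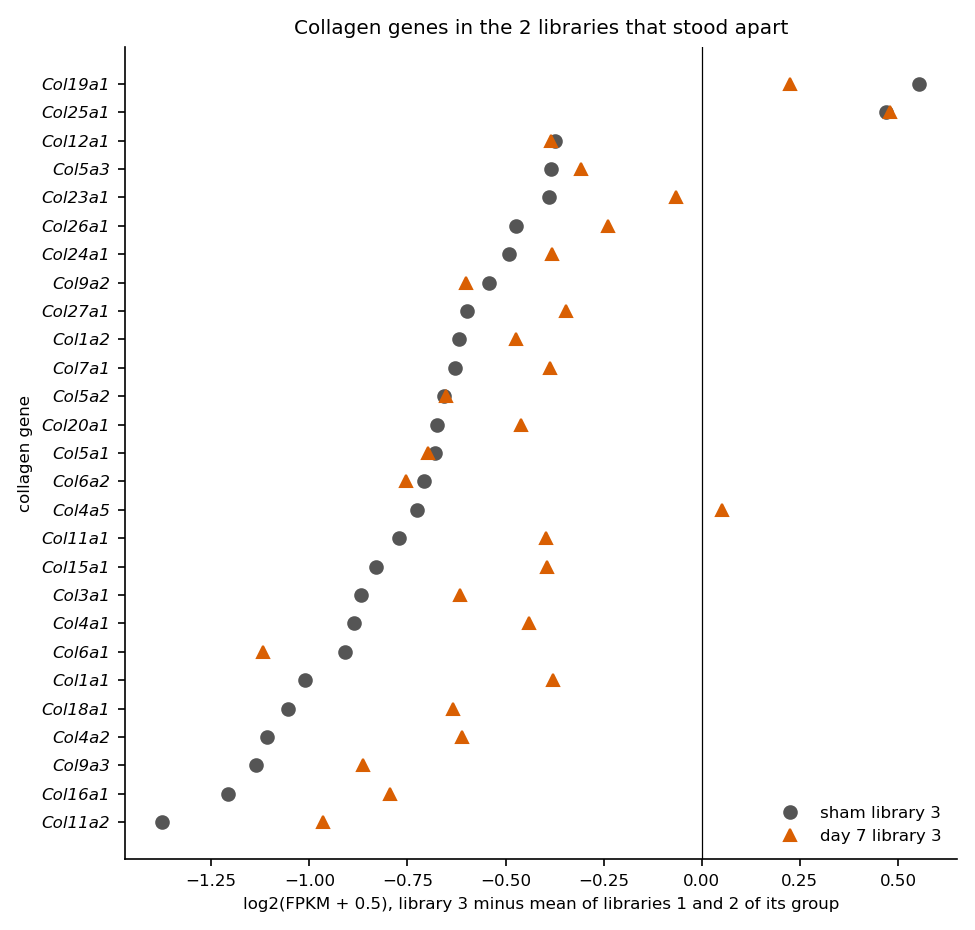
Difference of library 3 from the mean of libraries 1 and 2 of its group for the 27 collagen genes tested, on the log2(FPKM + 0.5) scale, with circles for sham library 3 and triangles for day 7 library 3. Nearly all points lie left of zero, and only Col19a1 and Col25a1 lie clearly to the right in both libraries.

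The remaining libraries of each group were close to one another. Over the 54 genes of at least 200 FPKM in every library, the log ratio of a pair of libraries had a spread of 1.20 to 1.67% within a group and 4.26 to 8.57% between groups, against 28.1 to 32.9% for pairs with 1 library that stood apart and 15.03% for the pair of them. Each comparison below is therefore given with all 12 libraries, the fixed analysis, and without these 2 libraries.

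Of the 44 collagen genes, 27 reached the mean of 0.5 FPKM needed for testing, 61.4% of the members against 47.3% of all genes. By class, the tested genes were 10 of 11 fibrillar, 3 of 6 basement membrane network, 6 of 9 fibril-associated, 2 of 6 beaded filament, 2 of 4 transmembrane and both multiplexin genes, with Col7a1 and Col26a1 and none of the 3 short-chain genes. A mean of at least 1 FPKM was reached by 23 genes and one of at least 5 FPKM by 5, which held 46.6% of the summed level. The 17 genes below the filter had means of at most 0.438 FPKM, that of Col6a3, a chain of type VI collagen. Of these, 6 were below 0.1 FPKM, and Col10a1, the collagen of growth plate cartilage, and Col17a1, a transmembrane collagen of skin hemidesmosomes, were listed at 0 in at least 1 library.

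**Figure D2:**
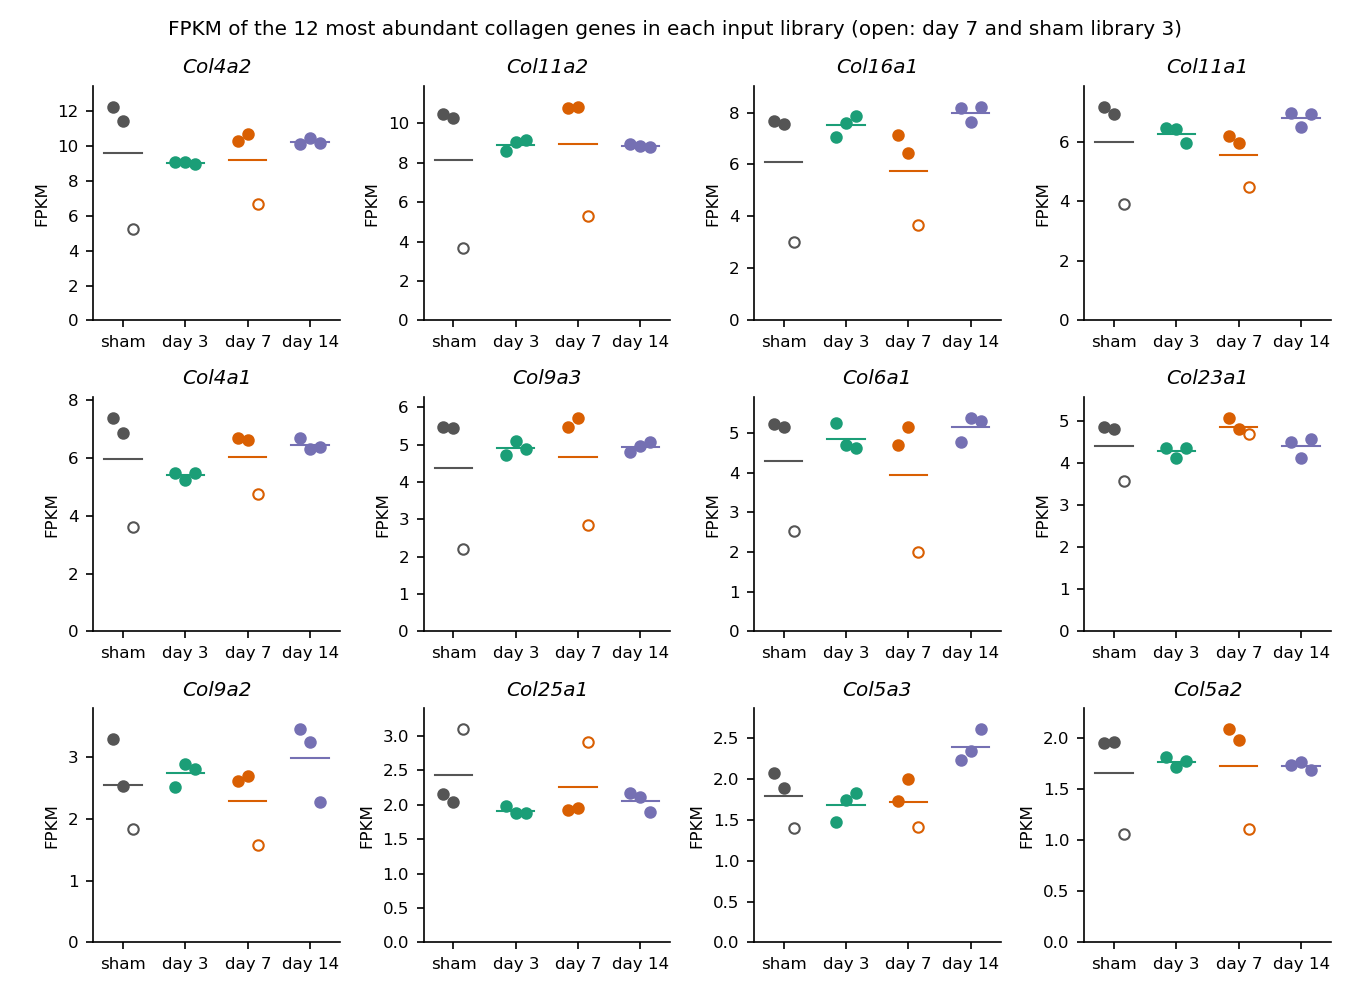
FPKM of the 12 most abundant collagen genes in each input library (vertical axis from 0), with groups on the horizontal axis, 1 point per library and a line at the mean of 3. The open points, day 7 library 3 and sham library 3, are the lowest of their group in every panel except Col25a1, where they are the highest, and Col4a2 is at 5.22 and 12.2 FPKM within the sham group.

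The basement membrane network held the most abundant member, Col4a2, with Col4a1 its partner in the common type IV trimer. Col4a2 was at 12.2, 11.4 and 5.22 FPKM in the sham libraries, 9.11, 9.07 and 8.98 FPKM on day 3, 10.3, 10.7 and 6.69 FPKM on day 7, and 10.1, 10.4 and 10.2 FPKM on day 14. Col4a1 was at 7.38, 6.88 and 3.63 FPKM in sham, 5.49, 5.26 and 5.49 FPKM on day 3, 6.69, 6.62 and 4.77 FPKM on day 7, and 6.68, 6.31 and 6.4 FPKM on day 14. Both chains thus had their highest values in sham libraries 1 and 2, their lowest in sham library 3, and an even level on day 3. Col4a5, a chain of other type IV trimers, was at 0.850 to 1.76 FPKM over the 12 libraries. Col4a3, Col4a4 and Col4a6, the remaining chains of the family, did not pass the filter.

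The ratio of Col4a2 to Col4a1 stayed between 1.51 and 1.72 in the 10 libraries, and was 1.44 in sham library 3 and 1.40 in day 7 library 3. In RefSeq (GRCm38.p6) the 2 genes lie head to head on chromosome 8. Col4a2 starts at 11312805 on the plus strand and Col4a1 at 11312826 on the minus strand. The starts are 21 bases apart, and the 2 genes overlap between them. Col4a5 and Col4a6 are a head-to-head pair too, with starts 1343 bases apart on chromosome X, and their ratio ranged from 5.51 to 12.03 in the 10 libraries, with Col4a6 at only 0.0542 to 0.207 FPKM over the 12.

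**Figure D3:**
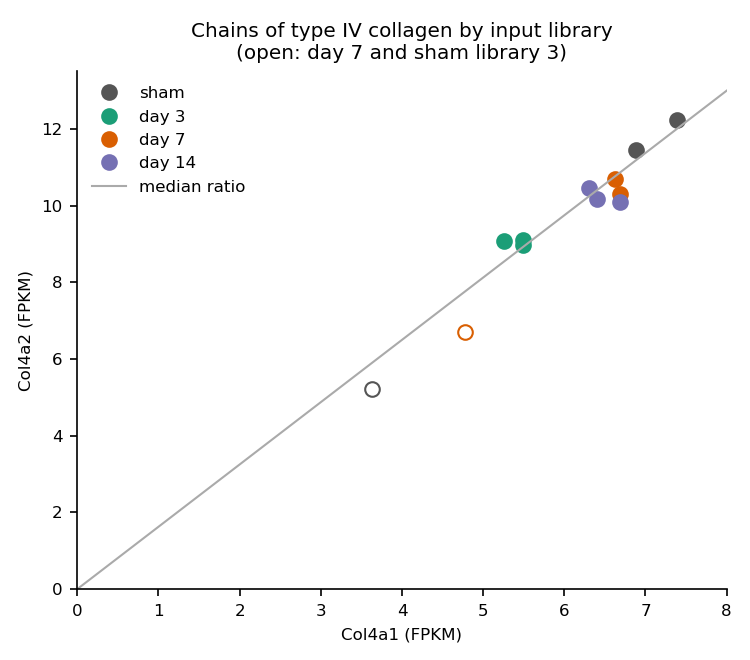
FPKM of Col4a2 (vertical axis) against Col4a1 (horizontal axis), 1 point per input library, coloured by group, with the line of the median ratio of 1.62. The 3 day 3 points lie together at 5.26 to 5.49 FPKM of Col4a1, below the filled points of the other groups, and the open points of the libraries that stood apart lie lowest and under the line.

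The fibrillar class had the most genes tested, 10 of 11, and its most abundant genes were the chains of type XI collagen, a thin fibril that cartilage and some epithelia also use. Col11a2 was at 10.4, 10.3 and 3.69 FPKM in sham, 8.58, 9.03 and 9.13 FPKM on day 3, 10.8, 10.8 and 5.28 FPKM on day 7, and 8.92, 8.84 and 8.80 FPKM on day 14. Col11a1 was at 7.15, 6.94 and 3.92 FPKM in sham and at 4.49 to 6.95 FPKM in the injured libraries. Leaving out the libraries that stood apart, Col11a2 was at 8.58 to 9.13 FPKM on days 3 and 14 and at 10.3 to 10.8 FPKM in sham and on day 7, with no overlap between these ranges.

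Type V collagen, which regulates the diameter of fibrils, was represented by Col5a3 (1.40 to 2.61 FPKM), Col5a2 (1.06 to 2.09 FPKM) and Col5a1 (0.445 to 1.39 FPKM). Col1a1 and Col1a2, the chains of the main fibre-forming collagen, were at 0.523 to 1.65 FPKM and 1.09 to 2.04 FPKM, and Col3a1, its frequent companion in vessel walls, at 0.241 to 1.02 FPKM. These 3 genes were below Col4a1, Col4a2, Col11a1 and Col11a2 in each library. Col24a1 and Col27a1, fibrillar collagens of developing bone and cartilage, were at 0.801 to 1.87 FPKM. Col2a1, the main collagen of cartilage, did not pass the filter at 0.129 to 0.447 FPKM, and the 10 markers of cartilage and bone summed to only 7.18 to 8.6 FPKM.

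Promoters are shown for Col11a2, which had the largest deficit in sham library 3, and for Col5a3, whose day 14 libraries lay above all others. RefSeq (GRCm38.p6) promoters were matched by symbol for 35 of the 44 genes, and the 250 bases before the start were searched on both strands. The TATA box was searched as TATAAA. The letters CCAAT stood for the CCAAT box. For the GC box the search used GGGCGG. Matches did not overlap in the windows shown. Capitals mark these letters or their reverse complement, and each sequence is written 5′ to 3′ on the gene's own strand.
Col5a3, chr9:20815068-20815317, minus strand: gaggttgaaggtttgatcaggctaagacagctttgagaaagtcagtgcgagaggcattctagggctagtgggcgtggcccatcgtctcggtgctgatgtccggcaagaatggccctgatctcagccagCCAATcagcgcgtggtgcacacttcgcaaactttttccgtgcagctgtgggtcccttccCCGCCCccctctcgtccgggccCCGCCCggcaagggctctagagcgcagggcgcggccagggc
Col11a2, chr17:34038888-34039137, plus strand: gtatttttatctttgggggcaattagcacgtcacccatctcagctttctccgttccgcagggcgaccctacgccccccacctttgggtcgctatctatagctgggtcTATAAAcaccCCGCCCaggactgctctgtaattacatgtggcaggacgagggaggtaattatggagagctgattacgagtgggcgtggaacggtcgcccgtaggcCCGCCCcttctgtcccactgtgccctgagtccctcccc
Col5a3 had 1 CCAAT box and 2 GC boxes in this window, and Col11a2 had 1 TATA box and 2 GC boxes. Of the 35 member promoters, 21 (60.0%) held a GC box against 32.9% of 27025 promoters, and their median GC content was 59.6% against 52.0%. A CCAAT box was in 12 (34.3%, all promoters 34.5%) and a TATA box in 5 (14.3%, all promoters 13.0%). These are matches of letters and not measured sites.

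Among the fibril-associated collagens, Col16a1 was at 7.68, 7.55 and 3.01 FPKM in sham and at 3.69 to 8.20 FPKM after injury. Col9a3 and Col9a2, chains of the type IX collagen that coats type II and XI fibrils, were at 2.21 to 5.70 FPKM and 1.58 to 3.45 FPKM, while the third chain, Col9a1, was below the filter. The beaded filament collagen VI was carried by Col6a1, at 2.00 to 5.37 FPKM, with Col6a2 at 0.451 to 1.26 FPKM. Partner chains were thus present at unequal levels per length: in the 10 libraries Col6a1 was 3.90 to 5.21 times Col6a2, Col9a3 was 1.39 to 2.24 times Col9a2, and Col1a2 was 1.12 to 1.80 times Col1a1.

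The 2 tested transmembrane collagens did not share the deficit of most collagens in equal measure. Col23a1, a shed membrane collagen, was at 4.85, 4.79 and 3.56 FPKM in sham and at 5.05, 4.80 and 4.68 FPKM on day 7. Col25a1 was at 2.15, 2.04 and 3.10 FPKM in sham and 1.92, 1.96 and 2.91 FPKM on day 7, so the libraries that were lowest for most collagens were highest here. The 4 genes of the class summed to 6.81 FPKM in sham library 3 against 7.05 and 7.25 FPKM in its group, where the 11 fibrillar genes summed to 14.7 FPKM against 30.2 and 31.3 FPKM. The 3 short-chain genes, all below the filter, were also near their group there, at 0.541 FPKM against 0.552 and 0.574 FPKM. The multiplexins Col15a1 and Col18a1, basement membrane proteoglycans whose C-terminal fragments act on vessel growth, were at 0.855 to 2.10 FPKM and 0.477 to 1.77 FPKM.

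Cells that make collagen were represented unevenly in the data. Markers of meningeal fibroblasts (15 genes) summed to 441 to 508 FPKM in 11 libraries and to 923 FPKM in sham library 3. The high sum was carried by Ptgds and Apod, which oligodendrocytes express too. Ptgds was at 446 FPKM in sham library 3 against 228 and 229 FPKM in sham libraries 1 and 2. The 8 oligodendrocyte markers were lower there, at a sum of 3729 FPKM against 4597 to 4611 FPKM in sham libraries 1 and 2. A single marker of low level, Lum, a proteoglycan of meningeal fibroblasts, went the other way, at 0.132 FPKM in sham library 3 against 0.523 and 0.448 FPKM. It was picked from the list, and the directions of the remaining markers are not given here. Endothelial markers (10 genes) summed to 65.7 FPKM in sham library 3, 64.9 FPKM in day 7 library 3 and 72.6 to 84.0 FPKM elsewhere. Pericyte and smooth muscle markers (10 genes) summed to 51.1 and 58.3 FPKM in these 2 libraries and to 65.2 to 70.2 FPKM elsewhere. Whether any of these cell types bears on the collagen levels was not tested.

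With all 12 libraries, no collagen gene passed limma at an adjusted p below 0.05 in any of the 4 comparisons. On day 3 against sham, 0 of 27 passed, where 0.0578% of all tested genes did (0.0514% higher and 0.00643% lower), and 0 had an unadjusted p below 0.05. On day 7 the count was 0 against a background of 0.103%, with 0 at an unadjusted p below 0.05. On day 14 it was 0 against 0.0514%, with 1 at an unadjusted p below 0.05, and for day 14 against day 3 it was 0 against 0.0129%, again with 1. The median collagen log2 fold change was 0.10 on day 3, -0.02 on day 7 and 0.16 on day 14 against sham, and 0.08 for day 14 against day 3, beside 0.03, 0.01, 0.03 and 0.00 for all genes. Every fold change here is a difference of log2(FPKM + 0.5), a scale that understates the change of low genes.

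The collagen genes with the smallest p against sham were far from the threshold. On day 3 they were Col25a1, at -0.26 (SE 0.16, adjusted p = 0.695, limma), and Col6a2, at 0.31 (SE 0.23, adjusted p = 0.695, limma). On day 7 they were Col26a1, at 0.20 (SE 0.15, adjusted p = 1, limma), and Col23a1, at 0.14 (SE 0.10, adjusted p = 1, limma). On day 14 they were Col5a3, described below, and Col7a1, at 0.29 (SE 0.18, adjusted p = 0.70, limma). Between days 14 and 3 they were Col5a3 again and Col15a1, at 0.23 (SE 0.21, adjusted p = 1, limma).

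Without the 2 libraries that stood apart, the direction of the collagen median against sham turned on days 3 and 14 but not on day 7. On day 3, 25 of 27 collagen genes were lower and 2 higher than sham, against 7 lower and 20 higher with all libraries, and the median moved from 0.10 to -0.16 (all genes 0.02). On day 14, 19 were lower and 8 higher, against 5 and 22, and the median moved from 0.16 to -0.09 (all genes 0.02). On day 7, 18 were lower and 9 higher, against 16 and 11, with a median of -0.09 (all genes 0.00). Sham then had only libraries 1 and 2, which were near copies of one another, so the spread behind these tests is that of very similar libraries.

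**Figure D4:**
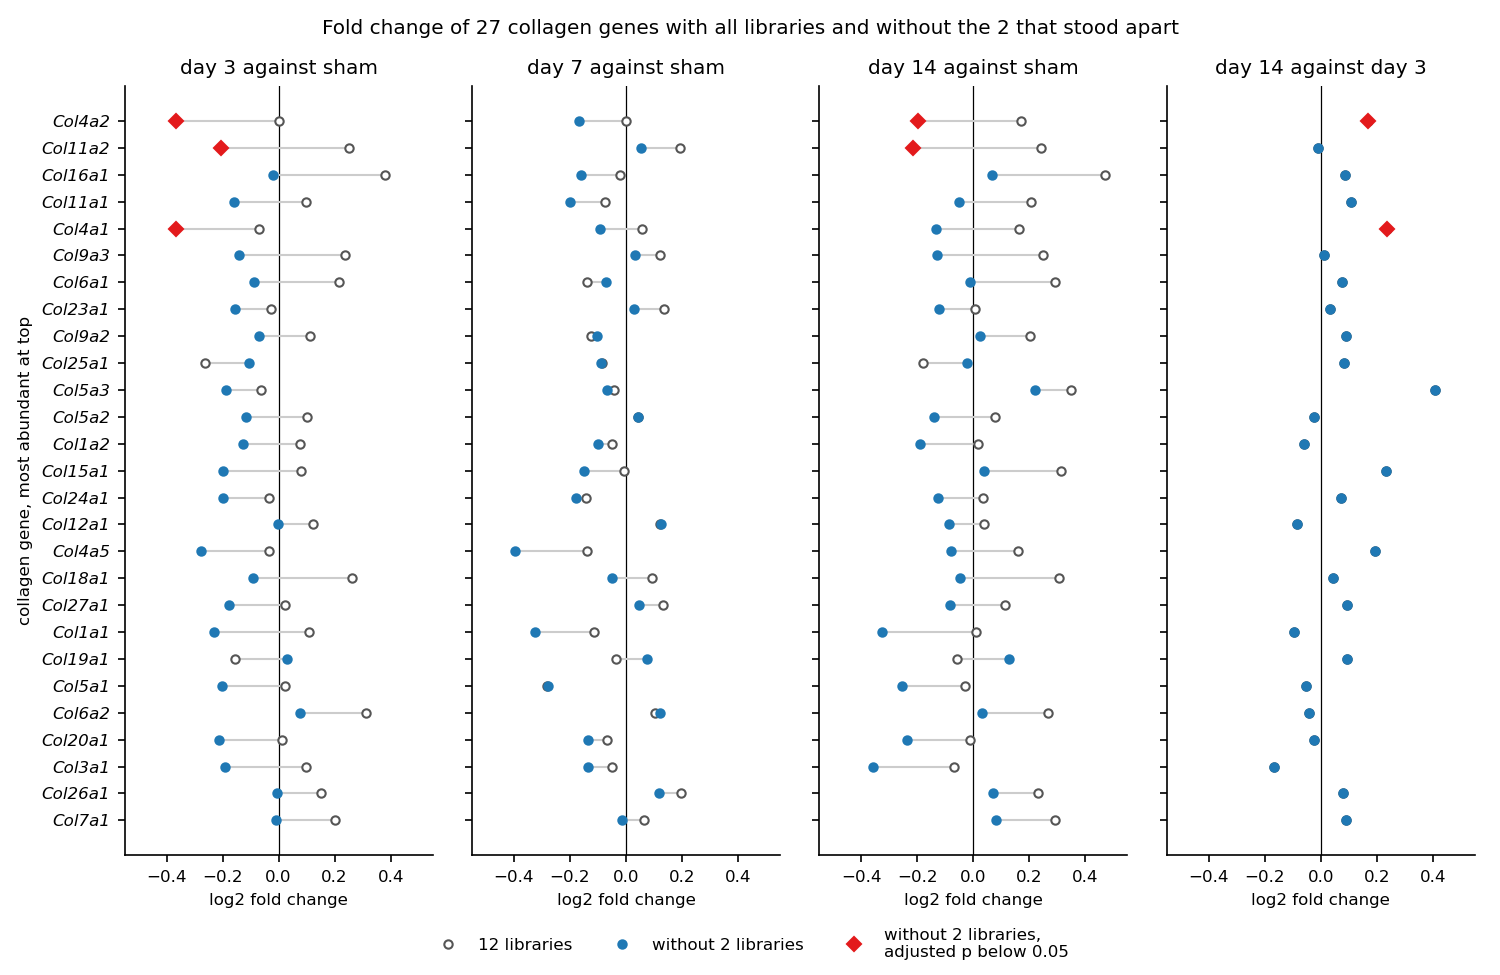
Log2 fold change (horizontal axis) of the 27 collagen genes in each comparison, with open circles for all 12 libraries and filled symbols without day 7 library 3 and sham library 3; red diamonds mark an adjusted p below 0.05 in limma. Grey lines join the values of a gene, and against sham on days 3 and 14 most run from right to left across zero, while day 14 against day 3 uses neither library and keeps its fold changes.

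On day 3 without these libraries, 3 of 27 collagen genes were lower and 0 higher, beside 7.07% of all genes, 3.06% lower and 4.01% higher. Col4a2 fell by 0.37 (SE 0.03, adjusted p = 0.00072 in limma, 3 against 2 libraries). Col4a1 fell by 0.37 as well (SE 0.04, adjusted p = 0.0016, limma). Col11a2 fell by 0.21 (SE 0.03, adjusted p = 0.0071, limma). Values of all 3 day 3 libraries lay below both sham libraries in each of these genes. With all 12 libraries the same fold changes were 0.00, -0.07 and 0.25, with adjusted p-values in limma of 0.999, 0.876 and 0.749.

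On day 7 without these libraries, 0 of 27 passed in limma, beside 1.11% of all genes (0.732% higher and 0.379% lower), and 5 had an unadjusted p below 0.05. The smallest adjusted p in limma was that of Col4a5 at 0.0805, with a log2 fold change of -0.40 (SE 0.09). Its values were 1.14 and 1.25 FPKM on day 7 against 1.75 and 1.71 FPKM in sham, while day 7 library 3 and sham library 3 were at 1.26 and 0.850 FPKM. Col4a2 differed by -0.17 (SE 0.04, adjusted p = 0.098, limma), which did not pass.

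On day 14 without these libraries, 2 of 27 were lower and 0 higher, beside 4.71% of all genes, 2.29% lower and 2.42% higher. Col11a2 fell by 0.22 (SE 0.03, adjusted p = 0.0084, limma) and Col4a2 by 0.20 (SE 0.03, adjusted p = 0.017, limma). Col4a1 was at -0.13 (SE 0.04, adjusted p = 0.126, limma) and did not pass. With all 12 libraries Col11a2 was at 0.24 and Col4a2 at 0.17.

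The comparison of day 14 with day 3 uses none of the libraries that stood apart, which enter only through the estimate of spread. Col4a1 was 0.24 higher on day 14 (SE 0.21, adjusted p = 1 in limma with all libraries). With the 2 libraries left out of the fit the fold change stayed the same and passed the threshold (SE 0.04, adjusted p = 0.0227, limma). Col4a2 was 0.17 higher (SE 0.27, adjusted p = 1), and 0.17 with SE 0.03 and adjusted p = 0.0388 in limma without them. These 2 of 27 genes stand beside 1.99% of all genes in either direction and 0.932% higher on day 14, and no collagen gene was lower, beside 1.05% of all genes. A fit of the day 3 and day 14 libraries alone, which also lacks the libraries that stood apart, called 0 collagen genes.

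Col5a3, a chain of type V collagen, had the smallest p of any collagen gene with all libraries. Its values were 2.23, 2.35 and 2.61 FPKM on day 14, 1.48, 1.74 and 1.83 FPKM on day 3, 1.73, 2.00 and 1.41 FPKM on day 7, and 2.07, 1.89 and 1.40 FPKM in sham. All 3 day 14 libraries lay above all 9 others. The log2 fold change was 0.41 against day 3 (SE 0.14, unadjusted p = 0.0135, adjusted p = 1 in limma) and 0.35 against sham (SE 0.14, unadjusted p = 0.0295, adjusted p = 0.70 in limma), so neither passed. Without the 2 libraries the adjusted p against day 3 was 0.0509 in limma, and the difference from sham was 0.22 (adjusted p = 0.24).

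Complete separation of the libraries gives a view that needs no model. All 3 day 14 libraries lay above all 3 day 3 libraries in 7 of 27 collagen genes, beside 11.8% of all genes tested: Col4a1, Col4a2, Col4a5, Col11a1, Col5a3, Col15a1 and Col19a1. None of the 27 lay wholly below, beside 9.87% of all genes. All 3 day 3 libraries lay below all 3 sham libraries for 1 collagen gene, Col25a1, beside 7.48% of all genes, and above them for 0, beside 13.4%. Against sham libraries 1 and 2 alone, 15 of 27 lay below on day 3, beside 16.4%, and 0 above, beside 23%. On day 7, 0 lay above (2.78% of all genes) and 0 below (1.66%) all sham libraries, and without the 2 libraries 8 lay above (22.8%) and 14 below (20.1%). All 3 day 14 libraries lay above all 3 sham libraries for Col5a3 and Col7a1, the collagen of anchoring fibrils, beside 12.2% of all genes, and below them for 0, beside 6.12%. Against sham libraries 1 and 2 alone, 12 of 27 lay below on day 14, beside 13.8%, and 3, the same pair and Col19a1, above, beside 22.4%.

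The genes that serve collagen were described beside their substrates, as lists chosen with earlier results known. With all 12 libraries, limma called 0 genes of all 8 lists in each comparison. Without the 2 libraries, modification and folding (19 of 19 tested) had 2 genes higher and 3 lower on day 3, and 2 higher and 2 lower on day 14. Of all genes tested, 4.01% were higher and 3.06% lower on day 3, and 2.42% and 2.29% on day 14. Serpinh1, the collagen chaperone HSP47, was at 10.9 and 10.7 FPKM in sham libraries 1 and 2, 8.06 to 8.97 FPKM on day 3 and 7.18 to 7.68 FPKM on day 14, and at 4.84 FPKM in sham library 3. It fell by 0.32 on day 3 (SE 0.05, adjusted p = 0.0073, limma) and by 0.50 on day 14 (SE 0.05, adjusted p = 0.00098, limma), against 0.04 and -0.14 with all libraries. Plod1 and Plod3, lysyl hydroxylases, were the others lower on day 3. Colgalt1, which adds galactose to collagen, was higher on both days, by 0.24 each (SE 0.04, adjusted p = 0.0127 and 0.0157, limma). The matricellular protein Sparc was higher too, by 0.29 on day 3 and 0.12 on day 14.

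Basement membrane partners (11 of 12 tested) had 2 genes lower on day 3, 0 on day 7 and 1 on day 14 without the 2 libraries. Of all genes tested, 3.06, 0.379 and 2.29% were lower on these days. The list had a median of -0.16, -0.10 and -0.13, beside 0.02, 0.00 and 0.02 for all genes. Nid1, the nidogen that joins laminin to type IV collagen, was at 7.44 and 7.77 FPKM in sham libraries 1 and 2, 5.34 to 5.89 FPKM on day 3, 7.73 and 7.94 FPKM in day 7 libraries 1 and 2, and 4.75 to 5.33 FPKM on day 14. It fell by 0.39 on day 3 (SE 0.06, adjusted p = 0.0052, limma) and by 0.56 on day 14 (SE 0.06, adjusted p = 0.0011, limma), against 0.00 and -0.17 with all libraries. Lamc3, a laminin chain, was the other gene lower on day 3. Cldn5, a tight junction protein of endothelial cells, was lower too, at 18.4 to 19.5 FPKM on day 3 against 23.3 and 24.5 FPKM in sham libraries 1 and 2. This was a fall of 0.33 without the 2 libraries (SE 0.04, adjusted p = 0.0016, limma). The endothelial list as a whole had a median of only -0.02 on day 3 without the 2 libraries, beside 0.02 for all genes. In that fit the endothelial list had 2 of 10 genes lower on day 3, the pericyte list 1 of 10 lower and the meningeal list 1 of 9 tested higher. For all genes the shares on day 3 were 3.06% lower and 4.01% higher. Without the 2 libraries the 8 oligodendrocyte markers were all lower on days 3 and 14, beside 3.06% and 2.29% of all genes. On day 7 in that fit 3 of the 8 were higher, beside 0.732% of all genes. With all 12 libraries 0 of the 8 passed on any day. The part of these cell types in the collagen differences was not tested.

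In the degradation list (10 of 14 tested), Timp1, an inhibitor of metalloproteinases that is induced by injury in many tissues, was at 1.53, 1.22 and 1.68 FPKM on day 3 and at 0.0520, 0.486 and 0.310 FPKM in sham. Its log2 fold change of 1.37 (SE 0.24) had an adjusted p of 0.11 in limma with all libraries and, at 1.41 (SE 0.27), of 0.0192 without the 2. On day 14 it was at 0.150, 0.450 and 0.101 FPKM. Without the 2 libraries the same list also had Timp3 higher and the membrane protease Mmp15 lower on day 3. Of all genes tested, 4.01% were higher and 3.06% lower in that fit. The collagen receptor Ddr1, 1 of 7 receptors tested, was lower on day 3 in the same fit, by 0.14 (SE 0.03, adjusted p = 0.0235, limma). With all 12 libraries 0 genes of either list passed on day 3. Lists of secretion, of maturation and cross-linking and of TGF-beta ligands and targets had 0 calls in limma with and without the 2 libraries. That of fibril-binding proteoglycans had 1 of 4 tested, Bgn, lower on day 14 without them, beside 2.29% of all genes.

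The m6A lists give, for each group, the regions where fragments pulled down by the antibody exceeded input, with a fold enrichment and a p of the authors' own. There is 1 list per group, so no spread between replicates can be given and groups were not tested. Peaks enriched 2-fold or more whose p did not exceed 1e-05 made up a stricter list. The lists held 32669 peaks in sham, 40195 on day 3, 34136 on day 7 and 38655 on day 14, of which 57, 96, 82 and 86 were in collagen genes.

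Most collagen genes carried a peak: 30 of 44 in sham, 39 on day 3, 34 on day 7 and 36 on day 14. Among the 27 tested genes it was 20 in sham and 23 on each injured day, beside 74.4% of all tested genes in sham (74.1% of the collagen genes) and 85.5, 76.6 and 85.1% on days 3, 7 and 14 (85.2% of the collagen genes on each day). In the stricter lists 15 tested collagen genes had a peak in sham and 20 on each injured day, beside 66.9% of all genes in sham and 73, 67.8 and 73.2% on days 3, 7 and 14. The sham list was the shortest overall. A peak was present in all 4 lists for 28 of the 44 genes, and a stricter peak for 16. Fewer collagen peaks than peaks of all genes reached the stricter lists. Of the collagen peaks, 42.11% in sham and 37.5, 39.02 and 41.86% on days 3, 7 and 14 did so. Of all peaks the shares were 66.75, 54.97, 61.39 and 56.81% in the same order. A stricter peak was found in 20 of the 44 genes in sham and in 25, 24 and 25 on days 3, 7 and 14.

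The 3′ UTR held 29 of the 57 member peaks in sham, 51 of 96 on day 3, 44 of 82 on day 7 and 47 of 86 on day 14. These shares of 50.9, 53.1, 53.7 and 54.7% lay near those of all peaks, 48.4, 50.7, 49.3 and 51.5%. Col16a1 had 1 peak in each list, annotated to the 3′ UTR (chr4:130097963-130099283 in sham), with a fold enrichment of 45.5 in sham and 11, 13.3 and 14.9 on days 3, 7 and 14. Col6a1 had a 3′ UTR peak (chr10:76709362-76709902 in sham) with a fold enrichment of 15.5 in sham and 5.46, 7.62 and 6.88 on days 3, 7 and 14. Col23a1 had its main peak in the 3′ UTR, at 10.4, 8.84, 8.53 and 9.69 in the same order. Fold enrichment is relative to the input of the same list and describes peaks within it, so values of different lists are set side by side without a comparison.

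Some peaks of high fold enrichment lay elsewhere in the transcript. Col12a1, a fibril-associated collagen, had a peak annotated to the 5′ UTR or an exon in every list (chr9:79714475-79715464 in sham), with fold enrichments of 29.8, 15.2, 41.3 and 39.6 in sham and on days 3, 7 and 14. Col8a1, a short-chain collagen of vascular endothelium at 0.207 FPKM on average, held the highest fold of any member, 82.8 in an exon in sham (chr16:57628323-57628802). Its highest folds on days 3, 7 and 14 were 25.8, 17.8 and 12.3, and all are ratios over a very low input. Col25a1 had a 5′ UTR peak and a pair of 3′ UTR peaks in all 4 lists, and Col11a2 a pair of 3′ UTR peaks in all 4. By contrast Col11a1, at a mean of 6.15 FPKM, and Col3a1 were the only tested collagen genes with no peak in any list, as were 10.6% of all tested genes, and Col9a1 had none either.

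**Figure D5:**
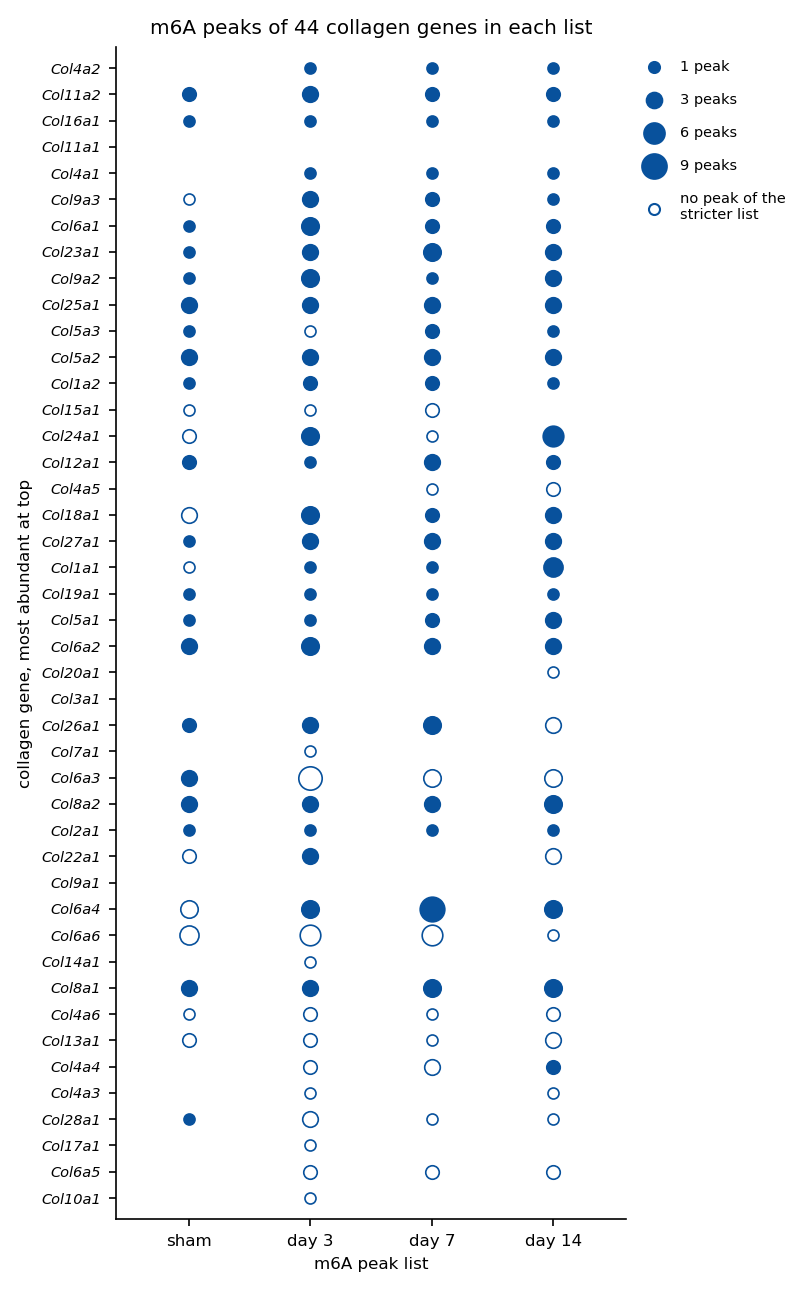
Number of m6A peaks (point area) of each of the 44 collagen genes, ordered by level from top to bottom, in the list of each group; filled points have at least 1 peak of the stricter list and open points none. The 2 type IV chains Col4a1 and Col4a2 have no point in the sham column and 1 filled point on each injured day, and Col11a1 has none in any column.

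Col4a1 and Col4a2 were without a peak in the sham list and had 1 in each injured list, in the 3′ UTR. In Col4a2 the peak lay at chr8:11449017-11449287 on day 3, with a fold enrichment of 4.69, and had 3.54 on day 7 and 4.54 on day 14. In Col4a1 it lay at chr8:11198423-11198783 in all 3 injured lists, with fold enrichments of 4.98, 4.13 and 7.91. All 6 peaks were in the stricter lists. A stricter peak on all injured days with no sham peak was found in these 2 of the 27 tested collagen genes, beside 1.65% of all tested genes, and a peak of the full lists in Col4a4 and Col6a5 too, both below the level filter. With full lists the background was 4.39% of tested genes. RNA levels of both genes in sham libraries 1 and 2 were above those of every injured library, and in sham library 3 below them. The enriched libraries that stand behind the sham list could not be looked at singly, so whether a library decides the absence of these peaks was not tested.

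Positions recurred between lists less completely than genes. Of the 57 collagen peaks in sham, 27 were found again on day 3, 26 on day 7 and 22 on day 14 with a reciprocal overlap of at least 50%, beside 47.6, 52.1 and 48.6% of all sham peaks. On all 3 days 16 of 57 recurred, beside 33.4% of all sham peaks. They included the 3′ UTR peaks of Col16a1, Col6a1, Col19a1, Col5a1, Col5a3 and Col23a1. In the other direction, 8 of the 96 day 3 peaks recurred on days 7 and 14 without touching a sham peak, beside 4.02% of all day 3 peaks. They lay in Col4a1, Col4a2, Col4a4, Col6a1, Col9a3, Col1a1 and, with 2 peaks, Col23a1.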

How the data were processed

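Input RNA and m6A-enriched RNA of 24 samples were sequenced, 3 of each kind in 4 groups taken from the labels. Per the labels' protocols, poly(A) RNA was purified, fragmented and incubated with an m6A antibody, and libraries were strand-marked with dUTP. Per the submitters' processing notes HISAT2, StringTie, ChIPseeker and edgeR were used; the sources used here name no versions, peak caller or build. The deposited gene table holds FPKM for 32884 genes in 12 input libraries; low values showed no steps of single reads, so depth, and with it counting error, is unknown. The deposited peak tables give a fold enrichment as a ratio, p and the false discovery rate on a log10 scale, in 1 list per group; whether replicates were pooled is not stated. Peak starts count from 0, since block sizes equal end minus start, and were written from 1; overlaps used whole peak spans, introns included. All 44 collagen genes overlapped the RefSeq gene of the same symbol in GRCm38.p6.

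Genes with a mean of at least 0.5 FPKM (15564) were fitted as 4 group means on log2(FPKM + 0.5) with limma 3.58.1 in R 4.3.3 (eBayes with trend). Adjusted p-values are Benjamini-Hochberg values over all genes tested in a comparison, with a threshold of 0.05; errors are moderated standard errors. The fit was run on simulated data with known changes, in which noise was independent between libraries. The simulation held no libraries that stood apart together and no near copies, so it cannot vouch for the fit in their presence. Peaks were assigned by gene identifier and compared with Python 3.11.15 and pandas 2.3.3. The members and lists were chosen with earlier results of these data known, as was the alternative without day 7 library 3 and sham library 3. Named with full statistics were members that passed, the 2 with the smallest p per comparison and the 12 most abundant; of other lists, genes that passed. Col4a5, Lum, the listed peaks, and the genes counted by separation of libraries were named after their values were seen. Alternatives were pseudocounts of 0.1 and 1, no filter or a filter of 5 FPKM, rescaling to TPM, median-of-ratios scaling, a replicate block, 2-group fits, robust eBayes, leaving out libraries, averaging near-identical libraries, a stricter peak list and other overlaps.

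Same-numbered libraries of day 7 and sham deviated together (correlations of 0.459, 0.534 and 0.793). The other 15 same-numbered pairs ranged from -0.105 to 0.212. The libraries that stood apart are in the day 7 and sham groups and share a number. Deviations within a group depend on one another, so these correlations are not separate pieces of evidence. Correlations between libraries with different numbers are not given, so pairing by number could not be decided. The labels do not say that a number marks a shared animal or day.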

Additional observations from a re-analysis of the deposited data

How the results depend on the processing

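With all 12 libraries the count of collagen genes past the threshold was 0 in each comparison. It was also 0 in every comparison under each pseudocount, filter (5 FPKM leaves 5 collagen genes) and scaling, robust eBayes, 2-group fits, the replicate block, averaging into 6 samples and leaving out any 1 library. Leaving out both libraries that stood apart gave 3 on day 3, 2 on day 14 and 2 for day 14 against day 3, and 0 on day 7. The labels give no pairing by number, and the replicate block changed no call.

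Without both libraries the fold change of 20 of 27 collagen genes turned sign on day 3, of 4 on day 7, of 16 on day 14 and of 0 for day 14 against day 3. Values here are given for the 12 most abundant genes and those with the smallest p. Among these, the genes that turned on day 3 were Col4a2 -0.37, Col11a2 -0.21, Col16a1 -0.021, Col11a1 -0.16, Col9a3 -0.14, Col6a1 -0.089, Col9a2 -0.069 and Col5a2 -0.12. On day 7 Col4a1 turned, at -0.092. On day 14 they were Col4a2 -0.20, Col11a2 -0.22, Col11a1 -0.051, Col4a1 -0.13, Col9a3 -0.13, Col6a1 -0.012, Col23a1 -0.12 and Col5a2 -0.14. Values near 0 also turned elsewhere, and the cause was not tested. Col4a2 was -0.00393 (pseudocount 1), -0.049 (TPM) and -0.029 (median-of-ratios) on day 3, and 0.0021 (pseudocount 0.1) and 0.0011 (TPM) on day 7. Col23a1 was -0.026 (TPM) and -0.025 (median-of-ratios) on day 14, and Col11a2 was 0.0072 (TPM) for day 14 against day 3. Averaging gave 0.076 for Col4a1, 0.038 for Col23a1 and 0.0051 for Col5a3 on day 3, and 0.081 for Col4a2 and 0.047 for Col16a1 on day 7.

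Leaving out sham library 3 alone gives the same fold changes on days 3 and 14 against sham as leaving out both, so all 20 and 16 genes turned there too. Over the same selected genes, the following ranges crossed 0 when 1 library at a time was left out. On day 3 they were Col4a2 -0.37 to 0.21, Col5a3 -0.19 to 0.028, Col4a1 -0.37 to 0.10, Col23a1 -0.16 to 0.041, Col11a2 -0.21 to 0.49, Col16a1 -0.021 to 0.59, Col11a1 -0.16 to 0.24, Col9a3 -0.14 to 0.43, Col6a1 -0.089 to 0.37, Col9a2 -0.069 to 0.28 and Col5a2 -0.12 to 0.21. On day 7 they were Col4a1 -0.24 to 0.23, Col9a3 -0.26 to 0.41, Col5a2 -0.17 to 0.26, Col4a2 -0.37 to 0.21, Col16a1 -0.43 to 0.24, Col11a1 -0.33 to 0.064, Col6a1 -0.44 to 0.23, Col9a2 -0.30 to 0.077, Col5a3 -0.17 to 0.059, Col11a2 -0.27 to 0.51 and Col25a1 -0.25 to 0.071. On day 14 they were Col23a1 -0.12 to 0.075, Col4a2 -0.20 to 0.38, Col11a2 -0.22 to 0.48, Col11a1 -0.051 to 0.35, Col4a1 -0.13 to 0.34, Col9a3 -0.13 to 0.44, Col6a1 -0.012 to 0.45 and Col5a2 -0.14 to 0.19. For day 14 against day 3 they were Col9a3 -0.011 to 0.038, Col11a2 -0.034 to 0.0077 and Col9a2 -0.00774 to 0.25.

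The stricter list left 25 collagen genes with a peak on day 3. Sham peaks found again were 44, 37 and 44 on days 3, 7 and 14 with an overlap of 1 base, 13, 12 and 10 with a reciprocal 80%, and 14, 16 and 13 of 24 in the stricter lists. Depth is unknown, so no limit from counting could be set for genes near 0 FPKM.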

Other observations

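Genes with collagen-like domains that the naming rule leaves out were looked at after their values were seen. Of 13 such genes, 10 were tested, and 1 passed limma with all 12 libraries, on day 7, where 0.103% of all genes did. C1qa, a chain of the complement starter C1q made by microglia, was at 25.0, 22.1 and 20.6 FPKM in sham, 32.2, 33.8 and 31.9 FPKM on day 3, 35.7, 35.8 and 39.6 FPKM on day 7, and 28.2, 29.9 and 30.8 FPKM on day 14. It rose by 0.71 on day 7 (SE 0.08, adjusted p = 0.0108, limma), while 0.53 on day 3 had an adjusted p of 0.0703 and 0.39 on day 14 one of 0.34. The injured libraries all lay above the sham libraries, the 2 that stood apart included. Its partner chains C1qb and C1qc did not pass on any day with all libraries, and were higher than sham on each day without those 2, by 0.54 and 0.58 on day 3 (SE 0.03 each, adjusted p = 2.5e-05 and 5.87e-05, limma).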
